A study of Homo sapiens with 9 samples.

Results

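The small RNAs described here are the working copies of the spliceosomal and histone-processing small nuclear RNAs (snRNAs), together with 7SK RNA and the nucleolar RNAs U3, U8 and U13, which are transcribed from promoters of their own. Members were chosen by gene symbol alone in GENCODE, with pseudogene-labelled copies left out. The rule gave 54 of the 60609 genes in the count tables, 47 made by RNA polymerase II and 7 by RNA polymerase III, in 14 RNA types. Of the RNA polymerase II members, 31 were U1 genes.

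RNA was sequenced after removal of ribosomal RNA from U2-OS cells, an established human osteosarcoma line. In 6 libraries the cells overexpressed NCBP2, which with NCBP1 forms the cap-binding complex of the nucleus. Clone A1 and clone A4 gave 3 libraries each, named A, B and C, and values are given in that order. The 3 vector libraries came from 3 empty-vector clones with 1 library each, so that the NCBP2 arm rests on 2 clones and the vector arm on 3. All cells were grown in the same medium, with no drug treatment named in the labels. The promoter that drives NCBP2 is not given in the sources used here. The labels do not say that the libraries of a clone were separate cultures, and p-values then measure only the spread between these samples. The series title concerns how the cap-binding proteins eIF4E and NCBP2 affect the fates of RNAs.

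Counts in genes ran from 29234022 to 50554080 per library, and members took 0.1079% to 0.7049% of them. NCBP2 stood at 299, 348 and 305 CPM (counts relative to the library total, after TMM scaling) in the libraries of clone A1. It was higher in clone A4, at 796, 1035 and 456 CPM, and was 98.4, 90.6 and 98.3 CPM in the vector libraries, so each NCBP2 library was above each vector library. Over all genes, replicate A of clone A1 was the least like the rest. Of 6 bone-lineage genes, 5 were above 1 CPM in every library, COL1A2 being the exception, and TERT and CDKN2A were at 0 throughout. The summed bone-lineage level was lower in every clone A1 library (2222 to 2811 CPM) than in clone A4 (3068 to 3783 CPM) or in the vector libraries (3089 to 3971 CPM). Summed epithelial markers ran from 40.7 to 74.5 CPM in clone A1, from 27.4 to 45.2 in clone A4, and from 63.7 to 115 in the vector libraries, so that clone A4 lay wholly below vector. Single genes carried these sums. KRT8 ran from 21.9 to 108 CPM over the libraries, while EPCAM, CDH1 and KRT5 reached at most 5.58, 3.63 and 3.12. In the bone-lineage sum SPARC ran from 1398 to 2250 CPM and COL1A1 from 532 to 1883. The part of the bone-lineage or epithelial difference in the snRNA values was not tested. Blood and endothelial markers reached at most 2.01 and 2.87 CPM.

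Most snRNAs are made by RNA polymerase II as capped transcripts without a poly(A) tail. Their new transcripts are bound at the cap by the nuclear cap-binding complex, which with PHAX takes them to the cytoplasm, where they receive the Sm ring and a trimethylated cap before returning to the nucleus. U6, U6atac and 7SK are made by RNA polymerase III and do not take that route. U1 and U2 mark splice sites, U4, U5 and U6 form the tri-snRNP, and U11, U12, U4atac and U6atac serve the minor spliceosome.

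Several members differ by only a few bases from a neighbouring copy, which decides whether a read can be assigned to one gene. The U4 genes, which took most of the counts, are shown first, because the ratio within the pair is described further on. They were read from GRCh38 at the GENCODE 44 coordinates, 5′ to 3′, with the bases that differ in capitals.

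RNU4-1: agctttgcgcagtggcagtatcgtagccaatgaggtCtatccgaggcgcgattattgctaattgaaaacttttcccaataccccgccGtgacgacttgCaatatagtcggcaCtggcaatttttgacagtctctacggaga

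RNU4-2: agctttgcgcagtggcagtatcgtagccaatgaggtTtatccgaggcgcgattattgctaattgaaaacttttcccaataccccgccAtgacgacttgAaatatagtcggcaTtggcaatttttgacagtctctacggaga

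RNU4-1 (chr12:120293097-120293237, minus strand) and RNU4-2 (chr12:120291763-120291903, minus strand) lie 1193 bases apart. Counted from the 5′ end, the changes from RNU4-1 to RNU4-2 are C37T, G88A, C99A and C113T, which leaves 97.2% identity. RNU5A-1 and RNU5B-1 lie 8510 bases apart on chromosome 15 and have 94.0% identity. Of the 67 possible 50-base windows in each U5 gene, 58 occur once in the genome, so both can be told apart by most reads of that length. RNU5A-1 overlaps PARP16 on the opposite strand, and 1.03% of its stranded counts were on the opposite strand.

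The abundant U1 gene in these tables is a variant copy, given here beside RNU1-1 with the differing base in capitals.

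RNU1-1: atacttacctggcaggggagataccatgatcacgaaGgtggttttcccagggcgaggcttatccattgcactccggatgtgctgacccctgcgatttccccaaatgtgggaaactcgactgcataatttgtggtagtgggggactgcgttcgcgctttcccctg

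RNVU1-28: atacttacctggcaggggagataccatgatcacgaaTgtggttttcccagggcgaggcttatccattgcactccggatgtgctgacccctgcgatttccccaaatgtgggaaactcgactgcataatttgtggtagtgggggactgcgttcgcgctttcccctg

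RNVU1-28 (chr1:144560666-144560829, minus strand) differs from RNU1-1 (chr1:16514122-16514285, minus strand) by G37T alone. RNU1-1, RNU1-2, RNU1-3, RNU1-4, RNVU1-18 and RNVU1-29 have the same sequence in full, and no 50-base window of theirs occurs once in the genome. RNVU1-28 took 88.4% of all counts in U1 members, with 32.2% of its windows found once. The counts therefore rank U1 genes by countable sequence as well as by RNA, and the share of each in the U1 pool cannot be told apart from how many of its reads could be placed.

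Of the 54 members, 39 had at least 1 count and 15 were at 0 in all 9 libraries. The members at 0 included RN7SK, RNU2-1, RNU2-2P, RNU7-1, RNU12 and SNORD118, so that 7SK, U2, U7, U12 and U8 had no count at all. A count of 0 allows up to 3 counts, or 0.0593 to 0.103 CPM by library for reads assigned to the gene, which covers counting error only and sets no limit on the RNA itself. In GENCODE 44, 11 members had at least 97.8% of their length under exons of another gene on the same strand. Of these, 10 were at 0 and RNU11 held 24 counts over the 9 libraries, with 0 to 6 in each.

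Those 11 overlapped members lie under host or duplicate entries of several kinds. RNU2-2P lies under an exon of WDR74, RNU7-1 under C12orf57, SNORD118 under the coding gene TMEM107, RNVU1-32 under PVT1, and RN7SK under a second 7SK entry. RNU11, RNU12, RNU5E-1, RNVU1-14, RNVU1-19 and RNVU1-6 lie under genes without a symbol. The annotation used for counting is not given in the sources used here, and the part of the overlap in these 0 counts was not tested.

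A further 12 members had no 50-base window found once in the genome, among them RNU2-1 at 0 counts. Their totals ran from 0 to 1133 with a median of 174. Of the other 31 members, 4 were at 0 (RNVU1-21, RNVU1-24, RNVU1-25 and RNVU1-26), and totals reached 885646 for RNU4-2. A filter on low counts passed 26 members, 21 made by RNA polymerase II and 5 by RNA polymerase III. None of the 11 overlapped members passed, against 9 of the 12 without a unique window and 17 of the other 31.

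**Figure D1:**
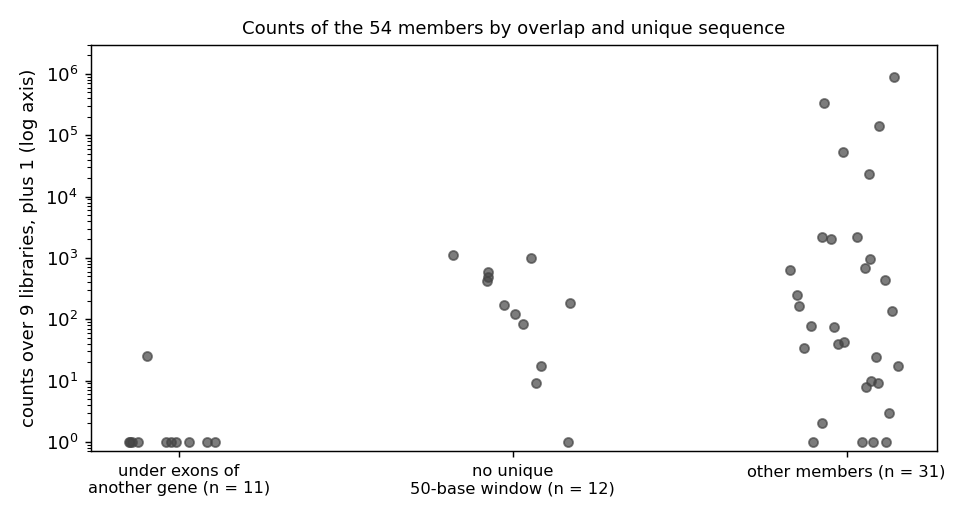
Counts of each of the 54 members summed over the 9 libraries, plus 1, on a log axis, in 3 sets by same-strand overlap with another gene and by unique 50-base windows. Each point is 1 member, spread sideways only for visibility; of the 11 overlapped members 10 sit at 0 counts, while the 31 other members reach 885646.

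The U4 pair took 84.23% of the 1455760 counts of all members and the U5 pair 13.2%, so that 4 genes made up 97.43%. Per length, RNU4-2 had the highest mean level over the 9 libraries, 16946 ± 7190 CPM per kilobase (SD, n = 9). RNU4-1 followed at 6510 ± 2502, RNU5B-1 at 3407 ± 2526, RNU5A-1 at 1281 ± 867 and RNVU1-28 at 363 ± 98.7 CPM per kilobase. RNU5B-1 was above RNU5A-1 in every library, although the difference of their means was smaller than the SD of RNU5B-1. The minor spliceosome pair stood far lower and close together, RNU4ATAC at 45.1 ± 12.2 and RNU6ATAC at 41.9 ± 24.6 CPM per kilobase, a difference within their spread.

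Other RNA types were lower still by the same measure. The most abundant U6 copy was RNU6-9 at 28.7 ± 11.2 CPM per kilobase, and SNORD13, the U13 nucleolar RNA, stood at 24.0 ± 9.91. SNORD3A, the U3 RNA that guides early cleavage of the ribosomal RNA precursor, stood at 8.38 ± 2.44 over an annotated length of 699 bases, of which 3.1% of the 50-base windows occur once. RNU6-1, RNU6-2 and RNU6-9 have the same sequence, so levels of single U6 genes are uncertain. RNU11 reached 0.443 ± 0.395 CPM per kilobase.

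**Figure D2:**
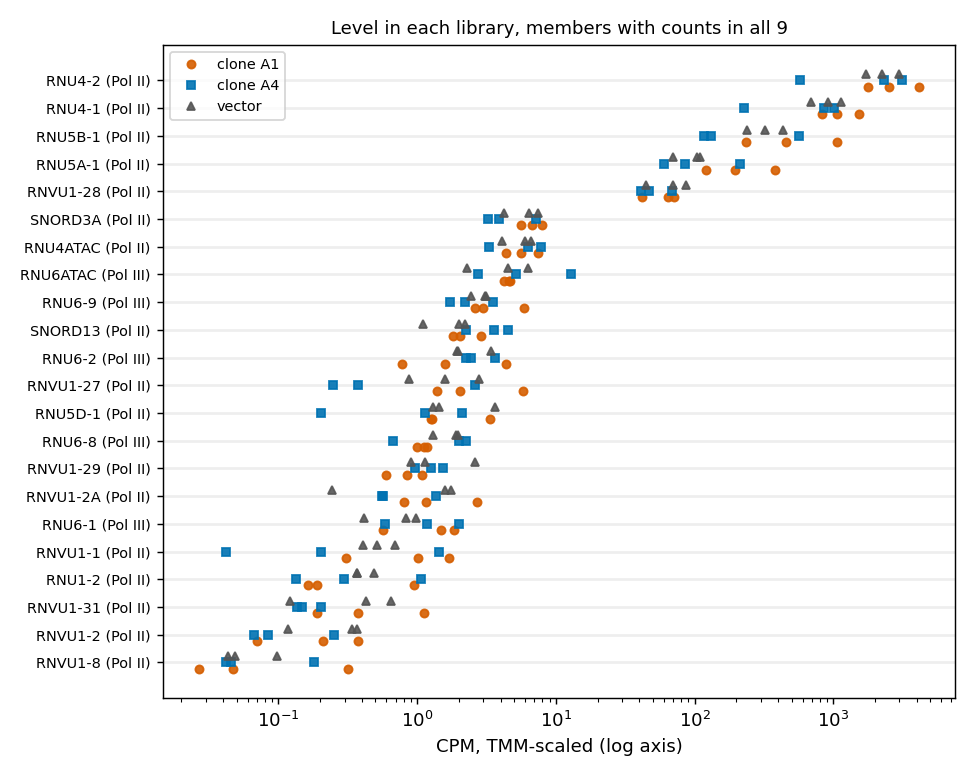
CPM (TMM-scaled, log axis) of the members with counts in all 9 libraries, 1 symbol per library, coloured by clone A1, clone A4 and vector. The U4 and U5 pairs and RNVU1-28 lie far to the right of all others, and the 3 groups overlap for nearly every member.

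The NCBP2 and vector libraries overlapped for each of the 5 abundant snRNAs, and replicates of a clone spread widely. In this bulk RNA, fewer cells of a type and less RNA per cell cannot be told apart. RNU4-2, the more abundant of the U4 genes, stood at 4183, 2539 and 1791 CPM in clone A1, at 575, 3139 and 2335 in clone A4, and at 2258, 2953 and 1731 in the vector libraries. The vector values lay inside the range of clone A4 and overlapped that of clone A1, and clone A4 replicate A was the lowest library of all. RNU4-1 stood at 1537, 1056 and 831 CPM in clone A1, at 228, 1007 and 857 in clone A4, and at 921, 1134 and 690 in the vector libraries. The same library was lowest and clone A1 replicate A highest for both U4 genes. Between the NCBP2 arm and vector, the log2 fold change by edgeR was 0.07 for RNU4-2 (95% interval -0.82 to 0.96) and 0.01 for RNU4-1 (-0.83 to 0.84).

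U5 contacts exon ends in the catalytic spliceosome. RNU5B-1 stood at 1066, 453 and 234 CPM in clone A1, at 131, 567 and 117 in clone A4, and at 431, 320 and 237 in the vector libraries. The vector libraries again lay within the NCBP2 range, which spanned 9.08-fold from its lowest to its highest library. RNU5A-1 stood at 377, 196 and 121 CPM in clone A1, at 60.5, 213 and 85.0 in clone A4, and at 105, 110 and 69.6 in the vector libraries. All 3 clone A1 libraries were above all 3 vector libraries for RNU5A-1, while clone A4 lay on both sides of them. RNU5D-1, a low U5 variant with 81.9% identity to RNU5A-1, ran from 0.202 to 3.64 CPM.

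RNVU1-28, the U1 copy with most counts, stood at 42.1, 71.2 and 64.8 CPM in clone A1, at 41.3, 69.1 and 46.7 in clone A4, and at 69.4, 86.5 and 44.8 in the vector libraries. The groups overlapped, and the highest library exceeded the lowest by 2.09-fold, less than for the U4 and U5 genes. Its log2 fold change in the NCBP2 arm was -0.26 (95% interval -0.77 to 0.25). Clone A1 replicate A, the highest library for RNU4-1, RNU4-2, RNU5A-1 and RNU5B-1, was among the lower ones for RNVU1-28.

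Across the NCBP2 arm and vector, no member passed an adjusted p of 0.05 by edgeR's quasi-likelihood test with Benjamini-Hochberg adjustment over 21682 genes. Among the 26 tested members, 0 were called, beside 0.0184% of all genes tested (4 genes), and 0 had an unadjusted p under 0.05, beside 5.71% of all genes. DESeq2 gave 0 by either measure, beside 0.526% of all genes called. For DESeq2 the share of all genes at an unadjusted p under 0.05 is not given in any comparison. The fold change was positive for 14 members and negative for 12, and 0 members had groups that did not overlap, beside 3.74% of all genes. The median log2 fold change was -0.01 over the 21 RNA polymerase II members and 0.12 over the 5 RNA polymerase III members, beside 0.02 over all genes tested. Leaving out 1 library at a time moved the first median between -0.20 (without clone A1 replicate A) and 0.15 (without vector replicate A). The second moved between -0.03 (without clone A4 replicate C) and 0.37 (without vector replicate B), so neither sign held throughout.

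Precision limits what this comparison could show. Standard errors of the members' log2 fold changes ran from 0.24 to 1.41 with a median of 0.56, against a median of 0.34 over all genes. In data simulated with the same library sizes and spread, the test recovered 55.5% of 200 genes changed 4-fold among 21682. The overexpressed gene, NCBP2, was above vector in every NCBP2 library and was not called here either. Its log2 fold change by edgeR was 2.495 (SE 0.41, adjusted p = 0.123). Among the members, the smallest unadjusted p values by edgeR belonged to RNU5A-1 (log2 fold change 0.89, SE 0.46, adjusted p = 0.921) and SNORD13 (0.69, SE 0.39, adjusted p = 0.980). For both, the 95% interval included 0. The fold change of RNU5A-1 was 0.50 without clone A1 replicate A, and that of SNORD13 was 0.42 without vector replicate C.

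**Figure D3:**
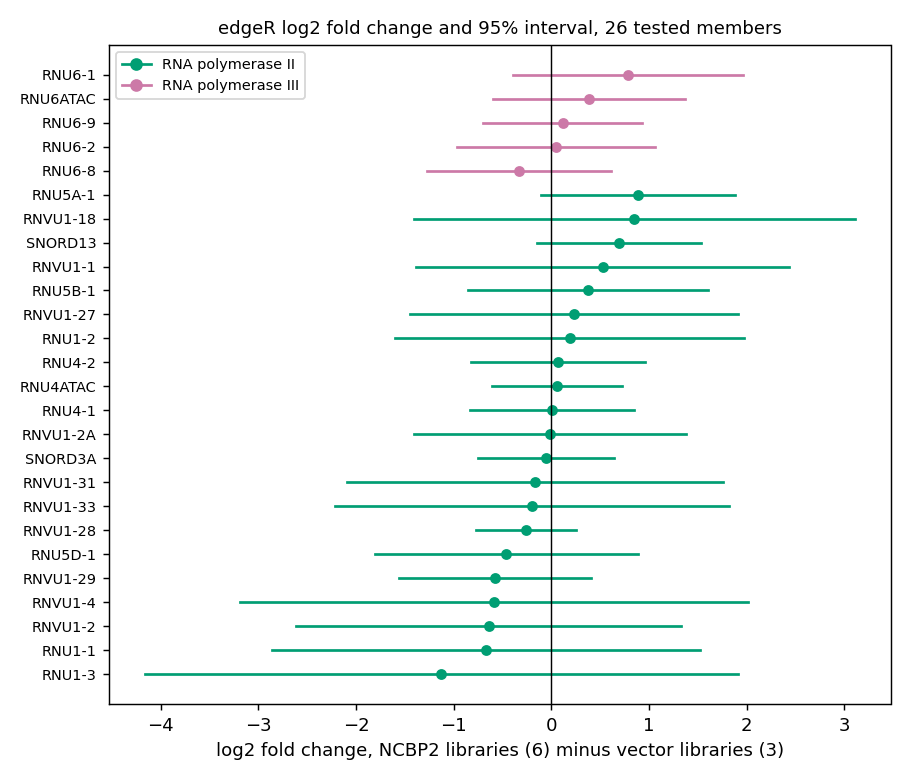
Log2 fold change by edgeR (points) with its 95% interval (lines) for the 26 tested members, 6 NCBP2 libraries minus 3 vector libraries, with RNA polymerase II and III members in different colours. All 26 intervals include 0, and the widest belong to low-count U1 genes such as RNU1-3.

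Clone by clone, a single member in each comparison with vector had a small unadjusted p, and 0 of 26 were called, beside 0.0646% of all genes for clone A1 and 0.115% for clone A4. In clone A1 the member was RNU5A-1, with a log2 fold change of 1.28 by edgeR (SE 0.46, 95% interval 0.28 to 2.29, adjusted p = 0.491). That is 1 of 26 members at an unadjusted p under 0.05, beside 7.51% of all genes. Without clone A1 replicate A the value was 0.74 (edgeR adjusted p = 0.977). RNU5B-1, its neighbour, had a log2 fold change of 0.83 (SE 0.60) in clone A1 by edgeR, which was 0.07 without clone A1 replicate A.

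In clone A4 the member with the smallest p was SNORD13, a nucleolar RNA that base-pairs with small-subunit ribosomal RNA. It stood at 2.27, 4.53 and 3.61 CPM in clone A4, at 2.04, 1.83 and 2.89 in clone A1, and at 2.23, 1.99 and 1.10 in the vector libraries. Each clone A4 library was above each vector library, by a small margin at the nearest pair. The log2 fold change by edgeR was 0.96 (SE 0.42, 95% interval 0.06 to 1.87, adjusted p = 0.869), again 1 of 26 members, beside 5.25% of all genes. DESeq2 also called 0 members in both clones, beside 1.26% of all genes for clone A1 and 1.01% for clone A4. It gave 1 member an unadjusted p under 0.05 in each, a count with no share of all genes to set beside it.

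Groups did not overlap for 2 members in clone A1 against vector, beside 14.2% of all genes, and for 1 in clone A4 against vector, beside 12.1%. The other member in clone A1 was RNU6-8, at 1.13, 0.995 and 1.18 CPM in clone A1 and 1.91, 1.97 and 1.29 in the vector libraries (log2 fold change -0.65, SE 0.51). Clone A4 held 1.99, 2.25 and 0.672 CPM of RNU6-8, on both sides of the vector values. These shares of members are at or below the background, and the comparisons of the clones share the same vector libraries. The median over RNA polymerase II members was 0.17 in clone A1, beside -0.02 over all genes, and -0.32 in clone A4, beside 0.03. The clone A1 value ran from -0.09 (without clone A1 replicate A) to 0.35 (without clone A1 replicate B) over left-out libraries, and was also negative without vector replicate C (-0.02). The clone A4 value stayed negative, from -0.77 (without clone A4 replicate B) to -0.17 (without vector replicate A). Over RNA polymerase III members the medians were 0.04 and 0.18. They ran from -0.26 (without vector replicate C) to 0.40 (without vector replicate B) in clone A1, and from -0.08 (without clone A4 replicate C) to 0.50 (without vector replicate B) in clone A4.

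The NCBP2 clones were also compared with each other. By edgeR 0 of 26 members were called, beside 0.161% of all genes, and 0 had an unadjusted p under 0.05, beside 6.63%. DESeq2 called 0 members, beside 1.14% of all genes. It gave 1 member an unadjusted p under 0.05, again with no share of all genes to set beside it. Clone A4 was lower than clone A1 in log2 fold change for RNU5B-1 (-1.10, SE 0.60), RNU5A-1 (-0.95, SE 0.46) and RNU4-1 (-0.71, SE 0.42), with intervals that included 0. These sizes moved with single libraries. RNU5B-1 ran from -2.24 without clone A4 replicate B to -0.36 without clone A1 replicate A, and RNU5A-1 from -1.68 to -0.42 without the same libraries. RNU4-1 ran from -1.09 without clone A4 replicate B to -0.30 without clone A4 replicate A. Without replicate A of both clones, an alternative chosen after seeing the data, RNU5B-1 had -0.012 and RNU5A-1 -0.093. RNVU1-4, a U1 variant with 75 counts in all, was the only member whose clones did not overlap, beside 13.6% of all genes. It had 12, 8 and 16 counts in clone A4 and 0, 0 and 7 in clone A1.

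The low-count U1 genes had the widest values. RNU1-3 had the most negative log2 fold change in clone A4, -3.37 by edgeR (SE 1.77, adjusted p = 0.9997), on 0, 0 and 4 counts against 30, 18 and 0 in the vector libraries. RNVU1-18, with an identical sequence, had a log2 fold change of 1.47 in clone A1 (SE 1.13), on 28, 57 and 10 counts against 22, 16 and 8. RNVU1-29, of the same sequence too, had -0.88 there (SE 0.54), on 17, 40 and 36 counts against 53, 134 and 37. The signs differed among genes that share every base, and the 95% interval of each of these fold changes included 0. RNVU1-27 and RNVU1-31, U1 variants with 681 and 134 counts in all, had log2 fold changes of -1.51 (SE 0.84) and -1.77 (SE 1.01) in clone A4 against clone A1.

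RNA polymerase III members were few, and low in these counts. No window of any U6 member occurs once in the genome, and reads with several alignments were left out. RN7SK, under another 7SK entry, had no count. The levels, sums and medians of this class therefore describe only the reads that could be placed. The part of this limit in the low levels was not tested. RNU6ATAC, the minor spliceosome partner of U4atac, stood at 4.57, 4.25 and 4.70 CPM in clone A1, at 2.75, 5.19 and 12.9 in clone A4, and at 4.53, 6.30 and 2.29 in the vector libraries. A single library, clone A4 replicate C, stood above all others. The log2 fold change in clone A4 was 0.66 (SE 0.51), and -0.16 without that library. RNU6-1 stood at 0.563, 1.86 and 1.48 CPM in clone A1, at 1.17, 0.591 and 1.99 in clone A4, and at 0.412, 0.976 and 0.830 in the vector libraries, with a log2 fold change of 0.79 in the NCBP2 arm (95% interval -0.39 to 1.96). RNU6-9, of the same sequence as RNU6-1, had 0.12 (95% interval -0.70 to 0.93).

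RNU4ATAC (chr2:121530881-121531007, plus strand), a minor spliceosome RNA made by RNA polymerase II, lies in an intron of CLASP1-AS1 and opposite CLASP1. Of its stranded counts, 9.81% were on the opposite strand. It stood at 7.46, 5.62 and 4.40 CPM in clone A1, at 3.27, 7.85 and 6.27 in clone A4, and at 6.61, 5.99 and 4.10 in the vector libraries. The groups overlapped, with a log2 fold change of 0.06 in the NCBP2 arm (95% interval -0.61 to 0.73). The interval includes changes of over 1.5-fold in either direction. SNORD3A had -0.06 (95% interval -0.75 to 0.64), standing at 6.72, 7.99 and 5.60 CPM in clone A1, at 3.25, 7.23 and 3.92 in clone A4, and at 7.43, 6.40 and 4.20 in the vector libraries.

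As a class, RNA polymerase II members summed to 4880 ± 2140 CPM in clone A1, 3179 ± 2002 in clone A4 and 3745 ± 922 in the vector libraries (SD, n = 3 each). RNA polymerase III members summed to 13.05 ± 1.75, 15.1 ± 5.84 and 12.2 ± 3.51 CPM. These RNA polymerase III sums lack reads with several alignments, and no window of a U6 member occurs once in the genome. The distance between the class sums is therefore no measure of the RNA itself. For both classes each difference between group means was smaller than the larger of the SDs. The 549 other small nucleolar and Cajal body RNA genes summed to 507 ± 79.3, 533 ± 204 and 524 ± 140 CPM, and clone A4 replicate A, lowest for the U4 genes, was lowest there too at 308. Pseudogene-labelled copies, 2007 genes, summed to 201 to 412 CPM, highest in clone A1 replicate A.

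The level of RNU5B-1 moved with the share of reads that have several alignments. That share was 16.0%, 16.3% and 8.04% for clone A1. It was 8.08%, 14.4% and 6.80% in clone A4, while the vector libraries had 11.1%, 10.5% and 7.61%. The 3 libraries above 14% were the 3 with most RNU5B-1, at 453 to 1066 CPM, and the 4 libraries under 8.1% were the 4 with least, at 117 to 237 CPM. RNU4-2 followed the share less closely, with 2335 CPM in the library with the smallest share, and RNVU1-28 had 42.1 CPM at a share of 16.0%. Libraries of a clone are not independent, and the part of this library property in the U5 levels was not tested.

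**Figure D4:**
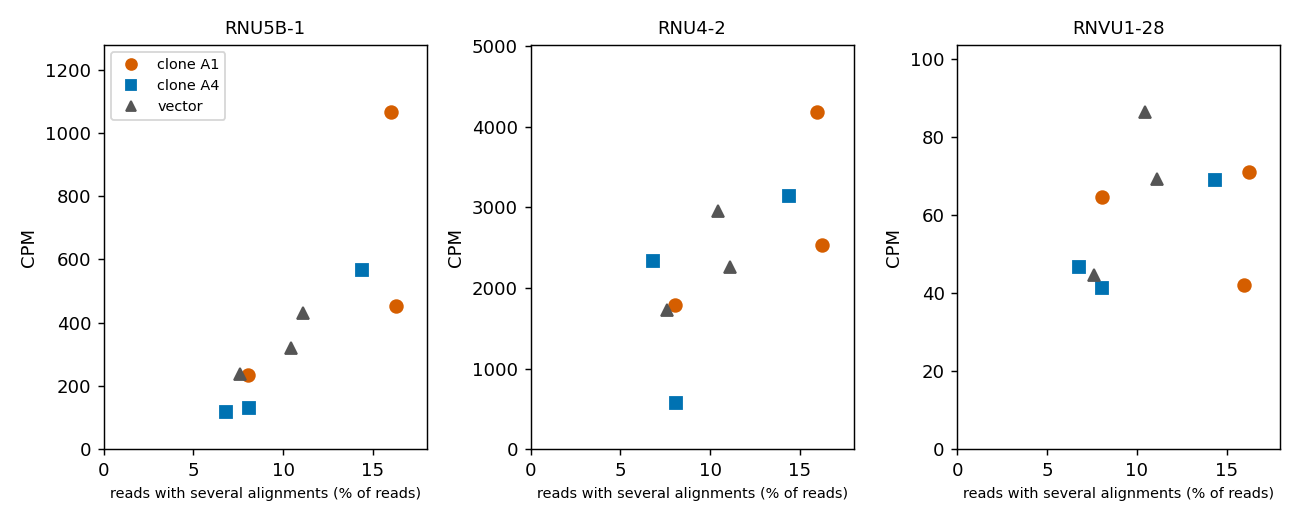
CPM of RNU5B-1, RNU4-2 and RNVU1-28 against the percent of reads with several alignments, 1 symbol per library, coloured by group. RNU5B-1 runs from 117 CPM at 6.80% to 1066 CPM at 16.0%, while RNVU1-28 has 42.1 CPM in that same library.

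Ratios between members of 1 library do not depend on how libraries are scaled. Among the 5 members with over 1000 counts in every library, 10 ratios were formed, a family chosen after their levels had been seen. The ratio of RNU5B-1 to RNU5A-1 stood at 2.82, 2.32 and 1.93 in clone A1, at 2.17, 2.65 and 1.38 in clone A4, and at 4.12, 2.90 and 3.40 in the vector libraries. All 6 NCBP2 libraries were below all 3 vector libraries, the nearest pair being 2.82 and 2.90. Group means were 2.36 ± 0.447, 2.07 ± 0.643 and 3.47 ± 0.609. The mean log2 ratio of the NCBP2 arm minus that of vector was -0.67 (exact two-sided permutation p = 0.0357 over 84 splits), and the adjusted p over the 10 ratios, 0.278, missed the threshold. The smallest p that 6 against 3 libraries allow is 0.0119. With counts summed per clone the difference was -0.54 (exact two-sided permutation p = 0.200).

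RNU5A-1 and U4, both of the tri-snRNP, were set against each other too. The ratio of RNU4-1 to RNU5A-1 stood at 4.07, 5.40 and 6.87 in clone A1, at 3.77, 4.72 and 10.1 in clone A4, and at 8.79, 10.3 and 9.92 in the vector libraries. One NCBP2 library, clone A4 replicate C, lay among the vector values and the other 5 lay below them (exact two-sided permutation p = 0.0595, adjusted p = 0.278). The ratio of RNU4-2 to RNU4-1 ran from 2.15 to 3.12 over the 9 libraries, with 2.61 ± 0.329 in the NCBP2 arm and 2.52 ± 0.0774 in the vector libraries (exact two-sided permutation p = 0.690). Over the same libraries the levels spanned 6.75-fold for RNU4-1 and 7.28-fold for RNU4-2.

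**Figure D5:**
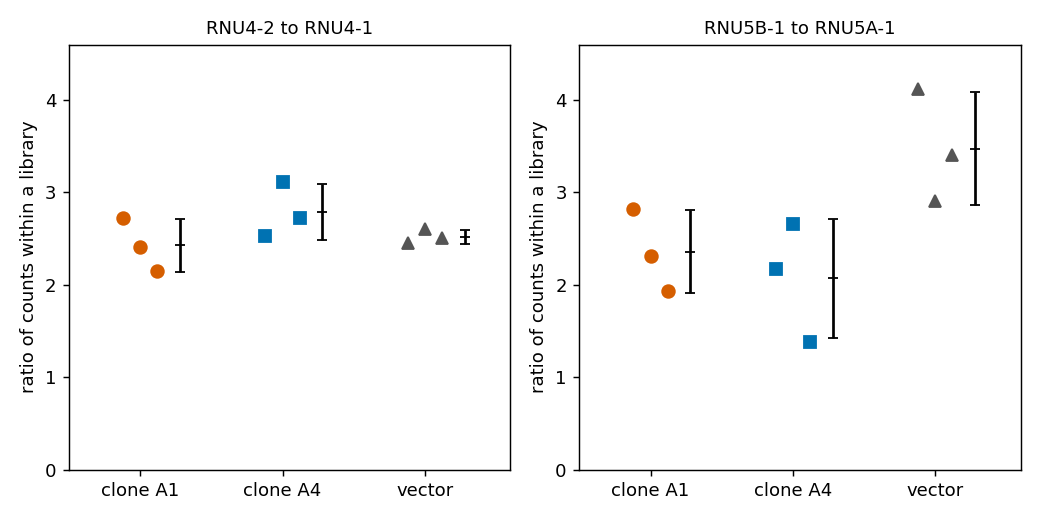
Ratio of counts within each library for RNU4-2 to RNU4-1 (left) and RNU5B-1 to RNU5A-1 (right), with 1 symbol per library and the group mean ± SD in black. The U5 ratio is 2.90 to 4.12 in the vector libraries and 1.38 to 2.82 in the NCBP2 libraries, while the U4 ratio overlaps between groups.

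The promoters of the U5 pair and of an RNA polymerase III pair are shown because the polymerase classes differ in a short stretch before the start, and because SNAPC1, described next, belongs to the complex that binds there. Each line holds the 80 bases upstream of the GENCODE 44 start on GRCh38. Capitals mark ACCNT between positions -66 and -46 and a run of at least 6 A or T bases between -35 and -20.

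RNU5A-1 promoter: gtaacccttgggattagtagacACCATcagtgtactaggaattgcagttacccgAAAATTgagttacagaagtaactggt

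RNU5B-1 promoter: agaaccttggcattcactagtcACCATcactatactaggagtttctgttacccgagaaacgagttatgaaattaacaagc

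RNU6-1 promoter: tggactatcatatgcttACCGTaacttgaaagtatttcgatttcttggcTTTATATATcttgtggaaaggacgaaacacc

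RNU6ATAC promoter: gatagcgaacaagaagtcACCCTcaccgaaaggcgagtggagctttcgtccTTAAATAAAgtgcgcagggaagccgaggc

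These stretches are chr15:65295971-65296050 (plus), chr15:65304597-65304676 (plus), chr15:67840046-67840125 (minus) and chr9:134164565-134164644 (minus). The A or T run, searched on the gene's strand, was present in 7 of 7 RNA polymerase III members, in 2 of 47 RNA polymerase II members (RNU5A-1 and RNU7-1) and in 15.2% of the promoters of 60295 genes. A T-A-rich box at this place is known to direct snRNA promoters to RNA polymerase III. ACCNT, on the same strand, was present in 4 of 7, in 39 of 47 and in 4.87%. The octamer ATGCAAAT, known to bind POU2F1, was found on either strand within 250 bases upstream in 4 of 7, in 10 of 47 and in 2.04%. No U1 gene was among the 10, although U1 genes make up 31 of the 47. RNU5A-1 and RNU5B-1 thus differ in the A or T run and share ACCNT and the octamer. The motifs were chosen after the sequences had been seen, and a match is a description of letters only.

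Proteins that make and handle snRNAs were examined as 7 lists with 81 genes, for promoter recognition, 3′ end formation, cap binding and export, Sm assembly and re-import, U6 binding, and the 7SK and U7 particles. NCBP2, the overexpressed gene, was not among the 81. By edgeR NCBP2 passed the threshold against vector in clone A1 (adjusted p = 0.0327) and in clone A4 (adjusted p = 0.000417). It missed it in the NCBP2 arm (adjusted p = 0.123) and in clone A4 against clone A1 (adjusted p = 0.0764). Of the 81 listed genes, 0 passed by edgeR in any of the 4 comparisons, in either direction. At an unadjusted p under 0.05 there were 4 in the NCBP2 arm, 4 in clone A1, 3 in clone A4 and 2 in clone A4 against clone A1, beside 5.71%, 7.51%, 5.25% and 6.63% of all genes, and the medians of the 81 log2 fold changes were 0.04, 0.05, 0.03 and -0.10. DESeq2 called 1 gene in each comparison, SNAPC1 in the 3 comparisons with vector and SNRPD1, an Sm ring protein, in clone A4 against clone A1 (edgeR log2 fold change -0.80, adjusted p = 0.235). In all, DESeq2 called 103, 274, 185 and 246 genes in the 4 comparisons, where edgeR called 4, 14, 25 and 35. SNAPC1 and SNRPD1 were named after their values had been seen.

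SNAPC1 is a subunit of the complex that binds the proximal element of snRNA promoters of both polymerases. It stood at 92.3, 47.5 and 67.5 CPM in clone A1, at 111, 74.3 and 75.3 in clone A4, and at 29.5, 16.7 and 30.9 in the vector libraries. All 6 NCBP2 libraries were above all 3 vector libraries. The log2 fold change by edgeR was 1.60 in the NCBP2 arm (SE 0.27, adjusted p = 0.123), 1.43 in clone A1 (SE 0.29, adjusted p = 0.139) and 1.76 in clone A4 (SE 0.30, adjusted p = 0.0512). DESeq2 gave adjusted p values of 1.83e-05, 0.00191 and 1.57e-05. The edgeR fit with no filter on low counts also called it, with adjusted p values of 0.00504, 1.36e-06 and 1.13e-10. The SNAPC1 log2 fold changes in that fit, 1.59, 1.41 and 1.75, were no larger than with the filter. The edgeR fit with a replicate block called it too (adjusted p = 0.0134, 0.0125 and 0.0028). These fits use the same libraries and are no independent support for SNAPC1. With counts summed per clone, 2 clones against 3, edgeR gave 1.58 in the NCBP2 arm and did not call it (adjusted p = 0.980). Without vector replicate A the edgeR adjusted p in the NCBP2 arm was 0.551. The sign of the SNAPC1 fold change was positive under all 17 alternatives in each comparison.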

How the data were processed

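Each of the 9 deposited tables gives whole-number read counts for every gene, not normalized. STAR 2.7.1a and GRCh38 are named in the submitters' processing notes; the annotation, counting settings and read length are not given in the sources used here. Per the labels' protocols libraries were ribodepleted, although the molecule field names polyA RNA. Column 3, the strand of the gene, was used. The 4 lines naming no gene, 44.5% to 63.6% of reads, were left out; reads with several alignments are among them. Of 60609 identifiers, 60295 matched GENCODE 44, which gave symbols and coordinates.

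edgeR 4.0.16 (R 4.3.3; filterByExpr, TMM, robust quasi-likelihood) was fitted to all genes, in 2 groups and in 3, with Benjamini-Hochberg adjusted p under 0.05 as threshold, after tests on simulated data. DESeq2 1.42.0 was an alternative, with other scaling, strand, filter, per-clone sums and left-out libraries. CPM used TMM-scaled totals. Unique windows were sought on the primary GRCh38 chromosomes. No libraries agreed within sampling noise (lowest chi-square per degree of freedom 26.9). The text names members past the threshold, the 8 with the smallest p per comparison and the highest of each RNA type per length, and others by counts and ranges. Members and lists were chosen with earlier results of these data known. Some RNA sequences are not reported here.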

Additional observations from a re-analysis of the deposited data

Results flagged for a closer look

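Among 38 quantities in the 6 NCBP2 libraries, 8 had a highest library far from the other 5. Chance flags about 1 in 20 groups where values are normally spread. The check used CPM and ratios without logs, and all 8 flags lay at the high end. The number of flags therefore cannot be set against that rate. The 5 ratios also share genes and libraries.

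Clone A1 replicate A was the library set apart in 4 of them. RNVU1-2A stood at 2.71 CPM there, against 0.560 to 1.36 in the other NCBP2 libraries. RNVU1-31 stood at 1.13 CPM against 0.136 to 0.376, on 32 counts. The ratio of RNU5A-1 to RNVU1-28 was 8.96 against 1.46 to 3.09, and that of RNU5B-1 to RNVU1-28 was 25.3 against 2.51 to 8.20. This library also had the fewest counts in genes, 29234022.

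Clone A4 replicate C held the other 4. RNU6ATAC stood at 12.9 CPM against 2.75 to 5.19. The ratio of RNU4-2 to RNU5A-1 was 27.5 against 9.50 to 14.8, that of RNU4-2 to RNU5B-1 was 19.9 against 3.93 to 7.65, and that of RNU4-1 to RNU5B-1 was 7.30 against 1.44 to 3.55. This library had the smallest share of reads with several alignments, 6.80%, and the highest sum of other small nucleolar and Cajal body RNAs, 706 CPM.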

How the results depend on the processing

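Of the 18 alternatives, 1 moved the count of members past the threshold from 0, the fit with no filter on low counts. That fit tested 39 members and gave 2, RNU5A-1 and RNU5B-1, in clone A1 against vector (312 genes called in all). It gave the same 2 in clone A4 against clone A1 (231 genes). No share of all genes is given for that fit, so these counts have no background beside them. RNU5A-1 in clone A1 had 1.25 (SE 0.21) there, against 1.28 (SE 0.46) with the filter. RNU5B-1 in clone A4 against clone A1 had -1.09 (SE 0.21), against -1.10 (SE 0.60). The fold changes thus hardly moved while the standard errors fell, and the cause was not tested. Leaving out clone A4 replicate C moved the median of RNA polymerase III members in clone A4 against clone A1 to -0.20, with a range of -0.20 to 0.63 over left-out libraries. The log2 difference in the RNU5B-1 to RNU5A-1 ratio stayed negative but missed an exact p of 0.05 with 1 vector library left out (-0.79 to -0.54 over left-out libraries), without replicate A of both NCBP2 clones (-0.77, p = 0.0571), with counts summed per clone (-0.54, p = 0.200, where the smallest possible is 0.1), in clone A1 alone (-0.56) and in clone A4 alone (-0.78; exact p = 0.1 in each, the smallest that 3 against 3 allows).

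Correlations of deviations between groups ran from -0.102 to 0.179 for libraries of the same letter and from -0.271 to 0.221 for different letters. The ranges overlap, and each vector letter is also a different clone. Whether the letters mark a pairing therefore cannot be settled here. A replicate block left 0 members called in all comparisons, with 13 genes called in the NCBP2 arm against 4 without it. The block gave 38 against 14 genes in clone A1, 53 against 25 in clone A4 and 51 against 35 in clone A4 against clone A1. With it SNAPC1 passed the threshold in all 3 comparisons with vector. The log2 fold change of RNU5A-1 in clone A1 was 1.25 with the replicate block.

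Of 621 values of named members under the alternatives, 596 kept sign and side of the threshold, and 21 changed sign, 17 of them with 1 library left out, in 10 results. In the NCBP2 arm, ranges over left-out libraries were -0.17 to 0.28 for RNU4-2, -0.14 to 0.19 for RNU4ATAC, -0.14 to 0.60 for RNU5B-1, -0.16 to 0.25 for RNU6-9, -0.029 to 0.74 for RNU6ATAC, -0.87 to 0.027 for RNVU1-29 and -0.27 to 0.11 for SNORD3A. They were -0.02 to 1.30 for RNVU1-27 in clone A1, and in clone A4 -0.78 to 0.01 for RNU4-1 and -0.16 to 1.02 for RNU6ATAC. Without replicate A of both NCBP2 clones, RNU6-9 had -0.04 and SNORD3A 0.03 in the NCBP2 arm, RNVU1-27 had -0.030 in clone A1 and RNU4-1 had 0.0092 in clone A4. This alternative and those of the ratio were chosen after seeing the data. SNAPC1 passed the threshold under 3 of 17 alternatives in the NCBP2 arm, 3 in clone A1 and 6 in clone A4. Depth limits members with few counts: RNU1-1, RNU1-3 and RNVU1-18 passed the filter on low counts with 0 counts in some libraries.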
